A study of Mus musculus with 1 sample.

Results

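Actin filaments are polymers of a protein that cells assemble and take apart under the membrane to move, spread and engulf. In macrophages they push out ruffles and close the phagocytic cup: the Arp2/3 complex branches filaments, formins extend them, profilin and thymosins hold and hand over free subunits, cofilins sever, capping proteins stop growth, and myosins pull or carry cargo along them. The genes described here were chosen by symbol alone, as the probes whose platform annotation names an actin, an actin-related protein, an Arp2/3 subunit, a capping protein, cofilin, profilin, tropomyosin, thymosin, coronin, diaphanous formin, formin-like protein, tropomodulin, WAVE protein, alpha-actinin, filamin or numbered myosin. These were 80 probes of 74 genes, out of 20690 named probes of 19321 genes.

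The study set a mouse macrophage-like line, RAW264.7, against mutant lines made with the mutagen ENU and sorted for loss of peroxiredoxin uptake. The measurement described here is a single one-colour array of the parental cells, the line before mutagenesis, which was grown in RPMI-1640 with fetal calf serum. Arrays of the mutants were not analysed here and the lines are not compared. RAW264.7 is a virus-transformed tumour line, and 1 RNA sample of it stands for the group.

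The value of a probe is the median pixel intensity of its spot in the Cy5 channel, in arbitrary units, with no background subtracted. A single array gives no spread between samples, so no test was made. The spread within the array at high signal can be read from control spots. Of 2 kinds of positive control, each printed in all 24 blocks, one varied with a coefficient of variation of 4.98% and the other with 5.37%. Their means were 12934 and 29507, so they do not measure the spread at low signal, where calls are made. A probe was called over the empty-spot limit, 22.98, where it exceeded the mean plus 2 SD of the empty spots. It was called over the chemosensory limit, 55.8, where it exceeded all but the top 5% of probes for olfactory, vomeronasal and taste receptors. Computed block by block, the empty-spot limit ran from 21.3 to 24.3. Negative controls filled 96 spots, of which 4 lay over the first limit and 0 over the second, the highest at 26.3. Chemosensory receptor genes passed the first limit far more often, in 451 of 1210 cases, or 37.3%. Over the second limit lay 61 of them, or 5.04%, a share set by how that limit was made. Whether these readings come from transcripts was not tested, so passing the empty-spot limit alone is not taken as detection. A gene takes its highest probe. Signal depends on the probe as well as on the transcript, so genes are compared by their calls and not ranked by level. For a low reading, few transcripts and a probe that responds badly cannot be told apart.

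A larger share of the actin and myosin genes than of all named genes passed each limit. Of the 74 genes, 61 passed the empty-spot limit, or 82.4% (exact Clopper-Pearson 95% interval 71.8 to 90.3), against 72.8% of all named genes. At the chemosensory limit 43 passed, or 58.1% (46.1 to 69.5), against 42.7% of all named genes. The intervals treat genes as draws and cover no difference between arrays. The interval at the lower limit holds the share of all named genes, and the one at the higher limit lies over it. The difference was also present in the bright range. Over 10 times the empty-spot limit lay 25 of the 74 genes, or 33.8%, against 20.9% of all named genes, and over 100 times it lay 11, or 14.9%, against 3.08%. The median of the genes was 6.20 on the log2 scale of signal, against 5.32 for all named genes.

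**Figure D1:**
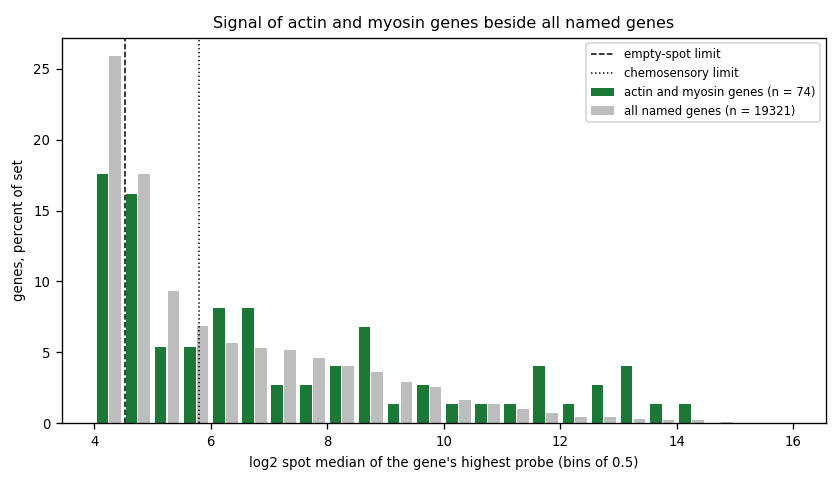
Share of genes (percent of each set, vertical axis) by log2 spot median of the highest probe (horizontal axis, bins of 0.5), for the 74 actin and myosin genes (green) and all 19321 named genes (grey); the dashed and dotted lines are the empty-spot and chemosensory limits. The lowest bin holds 17.6% of the actin and myosin genes and 25.9% of all named genes.

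Both cytoplasmic actins, the building blocks of the filaments, gave strong signal. Actb (probe M200000105), beta-actin, read 13247, which is 576 times the empty-spot limit. Actg1 (probe M300012334), gamma-actin, read 11327, or 493 times the limit. Actg2, the actin of visceral smooth muscle, also passed both limits, at 122. The 3 transcripts are closely alike in their coding parts, and whether the Actg2 probe also binds the other actins was not tested. The muscle actins Acta1 and Actc1, which lie outside the symbol pattern, were not over the empty-spot limit, at 20.9 and 20.1, and Acta2 lay between the limits at 28.8.

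Actin genes are textbook targets of serum response factor, which binds a DNA element called the CArG box. RefSeq promoters of GRCm38.p6, each from 250 bases before to 50 after a start site, were held for 59 of the 74 genes, 73 promoters in all. A CArG box, searched by its consensus on both strands, was found in 2 of the 73, or 2.74%, against 270 of 18665 promoters of genes on the array, or 1.45%. No promoter was held for Actb or Actg2, so neither was searched. These 2 are printed because, among the 59 genes searched, they are those with the element in this window. The box is in capitals. That of Actg1 (chr11:120348446-120348745, minus strand) begins at position -90 from the start site, and that of Myo1e (chr9:70207100-70207399, plus strand) at -32.
Actg1: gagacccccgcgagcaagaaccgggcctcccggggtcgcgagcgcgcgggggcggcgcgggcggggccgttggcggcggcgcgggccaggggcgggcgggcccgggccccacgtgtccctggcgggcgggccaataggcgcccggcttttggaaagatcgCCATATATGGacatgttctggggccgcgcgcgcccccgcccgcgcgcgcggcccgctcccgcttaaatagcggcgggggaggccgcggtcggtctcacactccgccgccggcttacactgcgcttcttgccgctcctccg
Myo1e: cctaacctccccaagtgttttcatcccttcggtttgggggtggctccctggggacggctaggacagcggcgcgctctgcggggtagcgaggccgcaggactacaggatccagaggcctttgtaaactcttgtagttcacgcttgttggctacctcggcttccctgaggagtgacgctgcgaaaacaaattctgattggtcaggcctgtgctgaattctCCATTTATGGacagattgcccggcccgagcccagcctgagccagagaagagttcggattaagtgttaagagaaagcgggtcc
Both genes were over both limits, Myo1e at 282. Neither window holds TATAAA, so the box overlaps no match of that motif. A match is a description of the letters and not a measured binding site, and a window without one says nothing of the factor.

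Over all 73 promoters, TATAAA (both strands) occurred in 2, or 2.74%, against 11.6% of promoters of genes on the array. GGGCGG (both strands), the core of a GC box, occurred in 51, or 69.9%, against 49.5%. The 73 promoters were also richer in G and C, with a median of 62.0% against 57.7%. The median number of CG dinucleotides was 22 in the 43 promoters of genes over both limits and 17 in the 16 of genes between them. It was 15.5 in the 14 of genes not over the empty-spot limit, against 15 in promoters of genes on the array. The promoters of the array were not divided by call, so whether other genes differ in the same way was not tested.

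All 6 measured members of the Arp2/3 complex and its close relatives passed both limits (6 of 6, interval 54.1 to 100%). The interval holds the 72.8% of all named genes over the empty-spot limit and lies over the 42.7% at the chemosensory limit. Actr3 (probe M200012138) encodes Arp3, which forms the start of a branch together with Arp2, and read 4730.5. Arpc2 (probe M300000778), a subunit that clamps the mother filament, read 10648. Arpc1b, the form of the propeller subunit favoured in blood cells, read 10058 on 1 probe and 3140.4 on the other, and Arpc1a, the other form, read 471. Arpc5 read 3852 and its relative Arpc5l read 387. Each of these probes was over 10 times the empty-spot limit, the lowest multiple being 16.8 for Arpc5l. These multiples include the local background, which was 254 around Arpc5l. The ratio of spot to local background ran from 1.52 for Arpc5l and 1.84 for Actr3 to 33.0 for Arpc5. Actr2, Arpc3 and Arpc4, further parts of the complex, were not analysed here.

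The other actin-related proteins in the set work in the nucleus, and all 3 passed both limits (interval 29.2 to 100%). That interval holds both the 72.8% and the 42.7% of all named genes over the 2 limits. Actr5 and Actr8 are parts of the INO80 chromatin remodeller and read 203 and 311. Actr6, a part of the SRCAP remodeller, read 339.9.

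**Figure D2:**
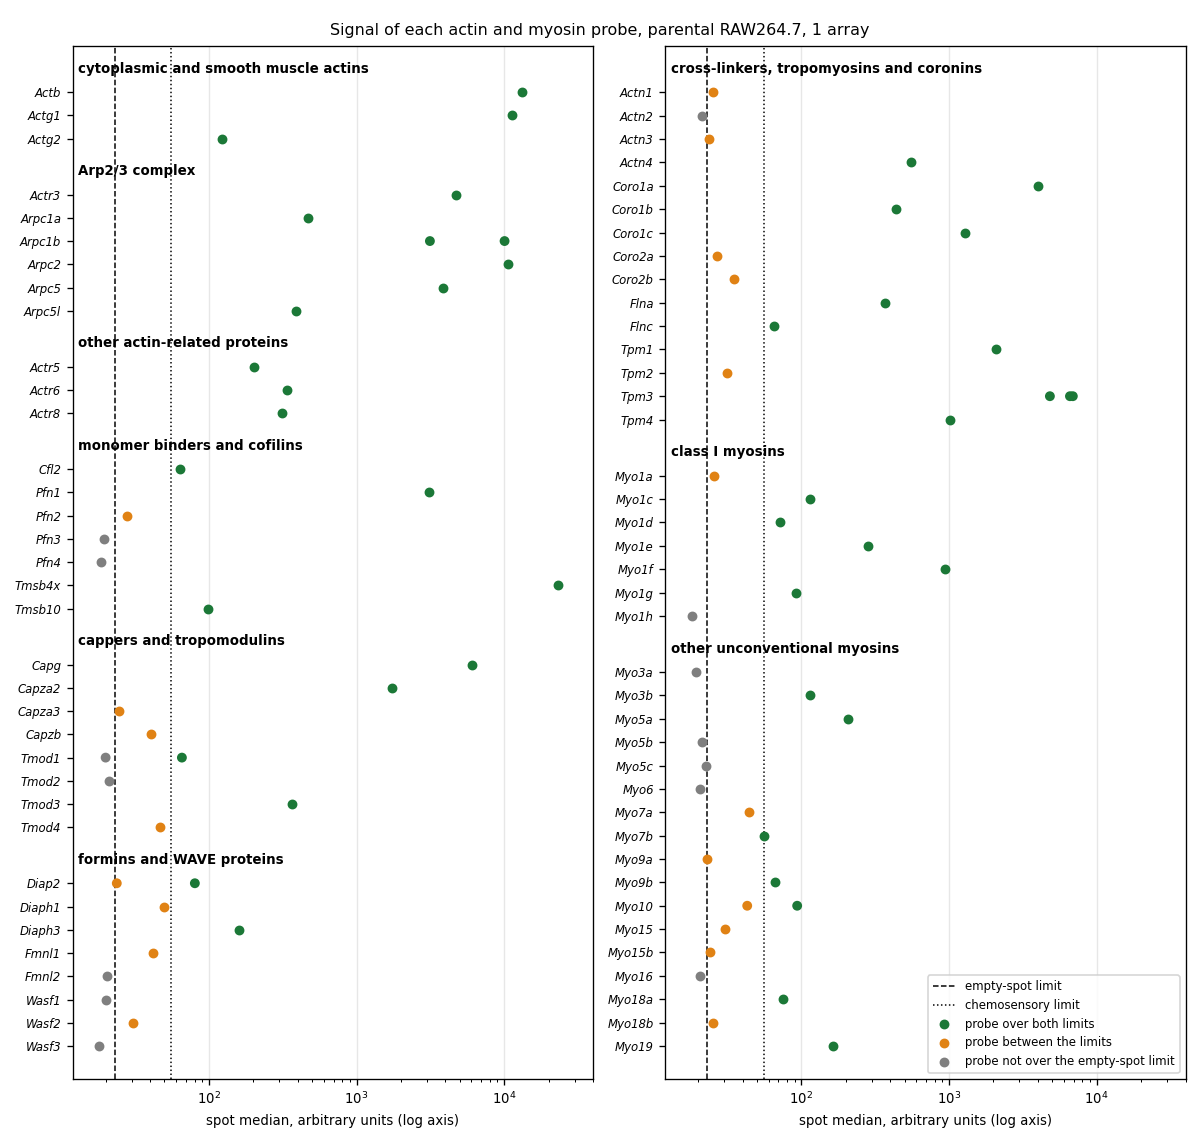
Spot median in arbitrary units (log axis) of each of the 80 probes, with genes in rows grouped by role; green points are over both limits, orange points between them and grey points not over the empty-spot limit. All 6 Arp2/3 genes lie to the right of both limits, as do 2 of the 8 formin and WAVE genes.

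Genes of monomer-binding proteins and cofilin gave readings on all sides of the limits. Tmsb4x (probe M200009414), thymosin beta 4, which sequesters free actin, read 23002, or 1001 times the empty-spot limit. Its relative Tmsb10 read 98.6 and also passed both limits. Pfn1 (probe M300001652), the general profilin, which feeds subunits to growing ends, read 3076. Pfn2, the profilin of neurons, lay between the limits at 28.0, and the testis profilins Pfn3 and Pfn4 were not over the empty-spot limit, at 19.6 and 18.6. Cfl2, the cofilin of muscle, which severs filaments, passed the chemosensory limit at 63.7. The general cofilin gene Cfl1 was not analysed here. In this role 5 of 7 genes passed the empty-spot limit, or 71.4% (29.0 to 96.3), against 72.8% of all named genes. At the chemosensory limit 4 passed, or 57.1% (18.4 to 90.1), against 42.7% of all named genes.

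Capping proteins of barbed ends ranged from strong to weak readings. Capg (probe M400005613), a gelsolin relative first described in macrophages, read 6009.9, and Capza2, an alpha subunit of the capping protein, read 1735. Capzb, the beta subunit that pairs with the alpha subunit in the working protein, lay between the limits at 40.6 on its 1 probe. The testis subunit Capza3 lay between the limits too, at 24.6. Tropomodulins cap the opposite, pointed end. Tmod3, the general form, read 368, Tmod4 of skeletal muscle lay between the limits at 46.8, and Tmod2 of neurons was not over the empty-spot limit at 21.1. Tmod1, known from red cells and muscle, read 65.7 on 1 probe and 20.0 on the other, so its probes lie on different sides of both limits. In this role 7 of 8 genes passed the empty-spot limit, or 87.5% (47.3 to 99.7), against 72.8% of all named genes. At the chemosensory limit 4 passed (interval 15.7 to 84.3%), against 42.7% of all named genes.

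Formins and WAVE proteins, which start or extend filaments, passed least often among the roles with 5 or more genes. Of 8 genes 5 passed the empty-spot limit, or 62.5% (24.5 to 91.5), an interval that holds the 72.8% of all named genes. At the chemosensory limit 2 passed, or 25.0% (3.19 to 65.1), an interval that holds the 42.7% of all named genes. Diaph3, a diaphanous formin, read 159. The probes named Diap2, an older symbol of Diaph2 in the RefSeq gene table, read 80.4 and 23.8, so the second lay between the limits. Diaph1 lay between the limits at 49.8. Fmnl1, the formin-like protein of blood cells, lay between them at 41.9 and Fmnl2 was not over the empty-spot limit at 20.5. Wasf2 encodes WAVE2, the member of its family used in most tissues, which activates Arp2/3 downstream of Rac. It lay between the limits at 30.8, while Wasf1 and Wasf3, the members favoured in brain, were not over the empty-spot limit at 20.2 and 18.1.

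Of 15 genes for cross-linkers, tropomyosins and coronins, 14 passed the empty-spot limit, or 93.3% (68.1 to 99.8). This interval holds the 72.8% of all named genes. At the chemosensory limit 9 passed, or 60.0% (32.3 to 83.7), which again holds 42.7%. Coro1a (probe M200005501), the coronin of leukocytes, read 3995, and Coro1c and Coro1b read 1279 and 437. Coro2a and Coro2b lay between the limits at 26.9 and 35.0. Tpm3, a tropomyosin that lines and stabilises filaments, read 4821, 6591 and 6893 on 3 probes, which is a ratio of 1.43 between the highest and the lowest. Tpm1 read 2091 and Tpm4 read 1017, while Tpm2, best known from muscle, lay between the limits at 31.5. Flna, filamin A, which joins filaments into a network, read 367, and the muscle filamin Flnc read 65.5. Alpha-actinins bundle filaments. Actn4, a non-muscle form, read 549, the other non-muscle form Actn1 lay between the limits at 25.3, and so did the muscle form Actn3 at 23.7. Actn2 of muscle was not over the empty-spot limit at 21.2.

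Myosins of class I, single-headed motors that tie filaments to membranes, passed the chemosensory limit in 5 of 7 cases, or 71.4% (29.0 to 96.3), an interval that holds the 42.7% of all named genes. Myo1f (probe M300004053), which is most abundant in immune cells, read 938, or 40.8 times the empty-spot limit. Myo1e, a form active in phagocytosis and clathrin-mediated uptake, read 282. Myo1c read 114, Myo1g of blood cells read 92.5 and Myo1d read 72.0. Myo1a, the myosin of the intestinal brush border, lay between the limits at 25.8, and Myo1h was not over the empty-spot limit at 18.3.

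Of the other 17 unconventional myosins, 12 passed the empty-spot limit, or 70.6% (44.0 to 89.7), against 72.8% of all named genes. At the chemosensory limit 7 passed, or 41.2% (18.4 to 67.1). That share is near the 42.7% of all named genes. Myo9b read 66.5. Myo19, which binds mitochondria, read 163, and Myo18a read 74.9. Myo10, a motor of filopodia, read 93.7 on 1 probe and 43.0 on the other, which lay between the limits. Myo5a, a carrier of vesicles and granules, read 206, but the local background around its spot was 213. Myo9a lay between the limits at 23.1. Myo6, the motor that walks toward the pointed end and takes part in endocytosis, was not over the empty-spot limit at 20.7.

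The myosins of epithelia and sense organs fell on all sides. Myo5b and Myo5c, vesicle carriers of epithelia, were not over the empty-spot limit at 21.3 and 22.6, and Myo7b of the brush border read 56.1, just over the chemosensory limit. Among myosins known from the hair cells of the inner ear, Myo3a was not over the empty-spot limit at 19.3, Myo15 and Myo7a lay between the limits at 30.2 and 44.2, and Myo3b passed both at 114. Between the limits lay Myo15b at 23.9 and the muscle gene Myo18b at 25.2. The neuronal Myo16 was not over the empty-spot limit at 20.7.

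Grouped by the tissue in which each gene is best known to work, a grouping made from textbook knowledge with earlier results of these data known, the calls differed. Of 46 genes used broadly or favoured in blood cells, 44 passed the empty-spot limit and 37 passed the chemosensory limit, or 80.4% (66.1 to 90.6), against 72.8% and 42.7% of all named genes. Of the 28 genes best known from muscle, epithelia, sense organs, neurons, testis or with no clear site, 17 passed the empty-spot limit and 6 the chemosensory limit, or 21.4% (8.30 to 41.0), against the same 72.8% and 42.7%. Those 6 were Actg2, Cfl2, Flnc and Tmod1 of muscle, Myo3b of sense organs and Myo7b of epithelia. The 2 broadly used genes not over the empty-spot limit were Fmnl2 and Myo6. Of the 6 genes favoured in blood cells, Capg, Arpc1b, Coro1a, Myo1f and Myo1g passed both limits and Fmnl1 lay between them. The muscle group had 8 of 9 genes over the empty-spot limit and 4 over the chemosensory limit, or 44.4% (13.7 to 78.8). That share is near the 42.7% of all named genes, so the low share of the 28 genes was not that of the muscle group. The epithelium and sensory groups each had 1 of 4 genes over the chemosensory limit (0.631 to 80.6%). The neuron group had 0 of 6 (0 to 45.9%), the testis group 0 of 3 (0 to 70.8%) and the group with no clear site 0 of 2 (0 to 84.2%). Each of these intervals holds the 42.7%.

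**Figure D3:**
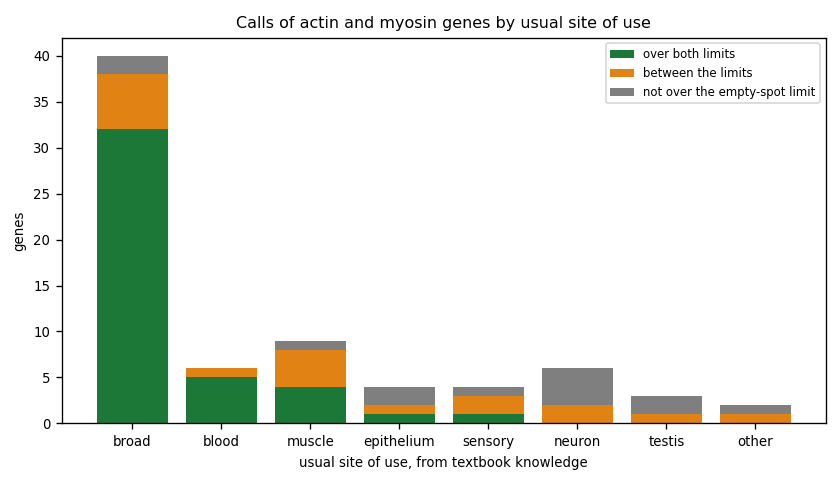
Number of genes (vertical axis) by usual site of use (horizontal axis), with each bar divided into genes over both limits (green), between them (orange) and not over the empty-spot limit (grey). Of the 40 broadly used genes 32 are over both limits, and of the 6 neuron genes 0 are.

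Marker genes gave the following readings beside these calls. All 8 macrophage markers, those of the labelled cell type, passed both limits, at 109 to 46513 (interval 63.1 to 100% at each). Of all named genes 72.8% passed the empty-spot limit, a share that this interval holds. The chemosensory limit was passed by 42.7% of all named genes, and the interval lies over that share. Of 10 muscle markers 2 passed the empty-spot limit (interval 2.52 to 55.6%) and 0 the chemosensory limit (0 to 30.8%), in a range from 17.4 to 23.8. The smooth muscle and fibroblast markers passed in 5 and 0 of 8 cases (24.5 to 91.5% and 0 to 36.9%), at 18.6 to 37.1. The hair cell and testis markers passed in 1 and 0 of 6 cases (0.421 to 64.1% and 0 to 45.9%), at 17.7 to 46.1. The epithelial markers passed in 4 and 2 of 6 cases, at 19.9 to 249, with Vil1 at 56.0 and Cldn4 at 249 over the chemosensory limit. Their intervals, 22.3 to 95.7% and 4.33 to 77.7%, hold the shares of all named genes. The muscle markers Myh1, Myh2, Myh4, Myh6, Myh7, Acta1 and Actc1 are counted again below among conventional myosin II genes and muscle actins. So are Acta2 and Myh11, while Cnn1, Tagln and Vil1 are counted in other lists below. For these genes the marker readings and the list readings are the same and not separate results. In RNA of a whole culture, few cells with much of a transcript and many cells with little of it cannot be told apart. The part of other cell types in the readings of specialised genes was not tested.

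Bright spots had bright surroundings, which bears on how far a reading belongs to its own probe. Around the 46 member probes over the chemosensory limit the local background had a median of 121 and exceeded the empty-spot limit at 45 of them. Around all named probes over the chemosensory limit the median was 61.3, and 8031 of 8537 exceeded the empty-spot limit, so the members' count is near that of the array. Around the blanks the median was 17.1. Actb had a local background of 9023, which leaves a spot 1.47 times its surroundings, and Tmsb10 had 76.8, or a ratio of 1.28. Pfn1 stood out from a background of 48.5 by a ratio of 63.4 and Arpc5 from 117 by 33.0. Myo5a had a ratio of 0.966.

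**Figure D4:**
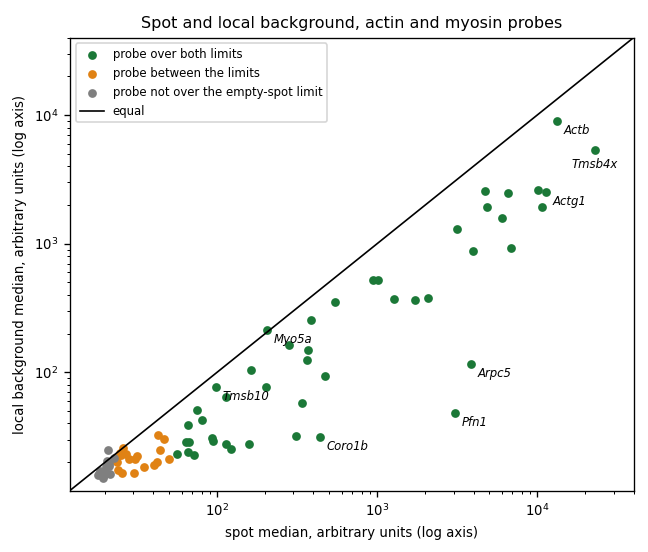
Local background median (vertical log axis) against spot median (horizontal log axis), in arbitrary units, for the 80 probes coloured by call; the line marks equality. Myo5a lies on the line with a ratio of 0.966, and Pfn1 and Arpc5 lie far under it.

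Further genes that act on filaments but fall outside the symbol pattern were taken from a list of 112 genes, of which 107 were measured here. Of these 83 passed the empty-spot limit, or 77.6% (68.5 to 85.1), against 72.8% of all named genes, and 55 passed the chemosensory limit, or 51.4% (41.5 to 61.2), against 42.7%. Among WASP, WAVE and Arp2/3 partners 14 of 15 passed the empty-spot limit, or 93.3% (68.1 to 99.8). At the chemosensory limit 9 passed, or 60.0% (32.3 to 83.7). Both intervals hold the share of all named genes. The WAVE complex subunits Abi1, Abi2 and Abi3 read 146, 89.9 and 168, and the Arp2/3 inhibitor Arpin read 107. Cttn, cortactin, was not over the empty-spot limit at 19.1.

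Of 19 severing, monomer and barbed-end genes 17 passed the empty-spot limit, or 89.5% (66.9 to 98.7), against 72.8% of all named genes. At the chemosensory limit 13 passed, or 68.4% (43.4 to 87.4), against 42.7%. The first interval holds the share of all named genes and the second lies just over it. Aif1, a macrophage actin bundler also called Iba1, read 333, the monomer recycler Cap1 read 2107, the cofilin relative Dstn read 948 and the capping protein Eps8 read 362. Avil at 20.4 and Enah at 18.6 were not over the empty-spot limit.

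Bundling, anchoring and adhesion genes passed the empty-spot limit in 20 of 26 cases, or 76.9% (56.4 to 91.0), against 72.8% of all named genes. At the chemosensory limit 16 passed, or 61.5% (40.6 to 79.8), against 42.7%. Both intervals hold the share of all named genes. The calponin Cnn2 read 68.2, the membrane linker Ezr read 105, the integrin activator Fermt3 of blood cells read 1406 and Lasp1 read 409. Not over the empty-spot limit were the smooth muscle genes Cnn1 at 20.2 and Tagln at 18.6, the fascins Fscn2 at 20.6 and Fscn3 at 20.5, Marcks at 17.9 and the intestinal plastin Pls1 at 19.9.

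Conventional myosin II genes and muscle actins passed least among these lists, in 15 of 26 cases at the empty-spot limit and in 5, or 19.2% (6.55 to 39.4), at the chemosensory limit. The interval lies under the 42.7% of all named genes, and most members are muscle genes. Myh9, a non-muscle heavy chain, read 120.2, and the light chain Myl12b read 3524. Myh8, a heavy chain of perinatal muscle, read 325 and Myl3, a cardiac light chain, read 121. Not over the empty-spot limit were the muscle heavy chains Myh1, Myh2, Myh4, Myh6 and Myh7, from 17.4 to 22.5, and the non-muscle Myh10 at 21.6. Myl4 at 19.5, Myl12a at 21.5 and Ppp1r12a at 22.5 did not pass it either, nor did the muscle actins Acta1 and Actc1. Myl12a and Myl12b encode nearly the same protein, and whether their probes tell the transcripts apart was not tested.

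**Figure D5:**
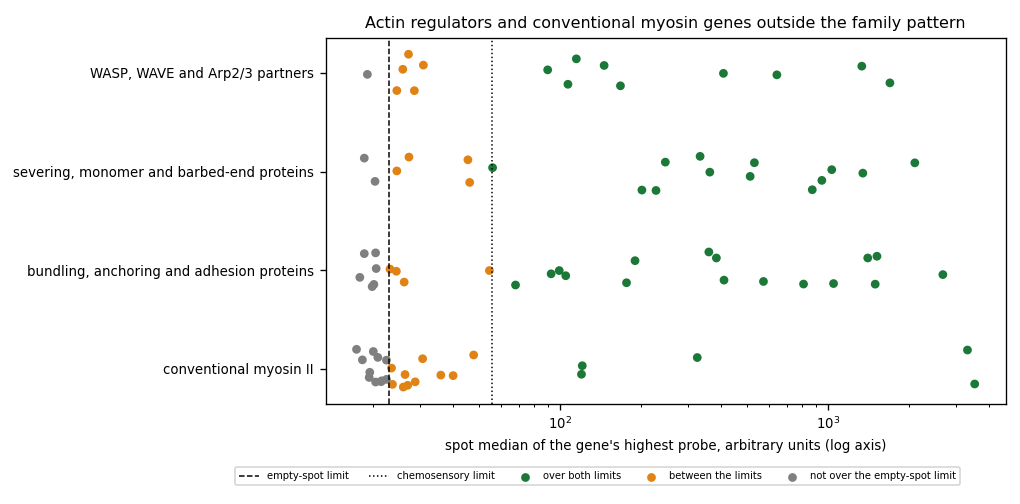
Spot median of the highest probe in arbitrary units (log axis) for genes outside the symbol pattern, in 4 lists spread vertically within each list for visibility; colours give the call as in the key. Of the 26 conventional myosin II genes and muscle actins, 5 lie over the chemosensory limit.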

How the data were processed

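Total RNA of parental RAW264.7 cells was amplified to amino allyl RNA and coupled to Cy5, per the labels' protocols. The authors deposited the scanner output, with the spot median and the local background median as intensity; per the file headers, scans at 3 gains were joined by least squares, and the software was not stated there. They also deposited a table of processed intensity, which from its values is the spot median minus the blank level times 0.486 (SD 0.000364 over 2987 probes), with 6784 empty cells at low signal and a median of 25.0; its centring is not stated. Its treatment of direction does not arise with 1 colour.

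The empty-spot limit is the mean plus 2 SD (20.6 and 1.18) of 2464 of 2736 blanks, after 5% at each end were left out. For the chemosensory limit the 95th percentile was taken over 1221 olfactory, vomeronasal and taste receptor probes. Duplicate spots were averaged and a gene takes its highest probe. Symbols come from the platform annotation; 78 of the 80 member probes, and 20556 of 20690 named probes, matched a RefSeq gene table of GRCm38.p6 by gene identifier, and 0 symbols changed. The 2 Diap2 probes carry no identifier and keep that symbol. Promoters came from RefSeq, same assembly. Shares have exact Clopper-Pearson 95% intervals, which cover counting only. The number of arrays limits the precision.

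The members, the lists and the grouping by tissue were chosen with earlier results of these data known. Every member is accounted for. Of the genes outside the pattern, those not over the empty-spot limit and the first 4 of each list in alphabetical order over the chemosensory limit are given. One list among them is counted in the totals and not reported apart here. Python 3.11.15, scipy 1.17.1 and limma 3.58.1 (normexp, offset 50) were used.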

Additional observations from a re-analysis of the deposited data

How the results depend on the processing

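In 10 other settings the count of actin and myosin genes over the empty-spot limit ran from 54 to 62 of 74, against 61 as reported. Over the chemosensory limit it ran from 40 to 42, against 43, in the 5 settings that recompute it. Updating symbols, a further alternative, changed 0 symbols and so tests nothing. The share of the actin and myosin genes stayed over that of all named genes in each setting; with normexp it was 73.0% against 63.2%, and with a limit from the No probe spots (their 95th percentile) 73.0% against 65.5%. The regulators outside the pattern ran from 70 to 85 of 107 and from 52 to 55. With normexp 65.4% of the regulators passed the empty-spot limit, which is near the 63.2% of all named genes. At the chemosensory limit that setting gave 49.5% of the regulators against 41.3% of all named genes. The median of the actin and myosin genes, 6.20 as reported, was 4.67 in the authors' value table and 5.18 with the local background subtracted, against 3.17 and 3.80 for all named genes in those settings; both settings put signals on another scale by their construction. Of the 74 genes, 63 held their empty-spot call in all 10 settings, 51 of them over the limit. The other 11 were Actn1, Tmod1, Coro2a, Myo5a, Myo5c, Myo15b, Myo18b, Myo1a, Capza3, Actn3 and Myo9a, the last in 6 of 10 settings. Myo5a lay at 0.832 times the limit with normexp. Genes of broad or blood use over the chemosensory limit numbered 35 to 37 of 46 in those 5 settings, and the others 5 of 28, against 37 and 6 as reported. Member probes not over the chemosensory limit had a median ratio of spot to local background of 1.19, against 1.20 for the blanks. No paired analysis was possible because there is 1 sample.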

Other observations

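Several families outside the symbol pattern hold a copy favoured in blood cells beside a copy used elsewhere. The pairs below were picked after their values were seen, and only calls are compared. Hcls1, the cortactin relative of blood cells, passed both limits at 1336, and Cttn was not over the empty-spot limit at 19.1. Nckap1l, the blood form of a WAVE complex subunit, passed both limits at 644, and Nckap1 lay between them at 25.9. Was, the Wiskott-Aldrich protein gene of blood cells, passed both limits at 407, and the widely used Wasl lay between them at 28.6. Other families did not divide this way. Rac2 of blood cells and the general Rac1 both passed both limits, at 3152 and 2924, and Rac3 lay between the limits at 40.9. The leukocyte plastin Lcp1 read 2681 and the general plastin Pls3 read 359, both over both limits. Gmfg, favoured in blood cells, lay between the limits at 46.0, while Gmfb passed both at 512. Poor probes as a source of the low readings were not tested.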
